A study of Drosophila melanogaster with 36 samples.

Results

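The comparison described here is that of male flies labelled day 1 that had inhaled CMIT/MIT with male flies of the same day that had breathed filtered air. Libraries were chosen by sex, day and treatment as given in the sample titles and treatment labels, which gave 3 exposed and 3 air libraries of the 36 in the series. All were made from whole Drosophila melanogaster of wild-type genotype (WT in the labels). Age and strain are not stated. Exposed flies had received the aerosol at 330 mg/m3 for 1 hour, and the labels name no transgene or other agent in either arm. RNA was sequenced from transcript 3′ ends, so that each read counts a transcript end of a gene. The labels do not say from which event the days count, nor whether replicates were separate cultures of flies, and all p-values therefore measure the spread between these libraries, which may be technical. Exposed libraries are marked T2 in the file headers and T in their titles.

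CMIT/MIT is a biocide made of chloromethylisothiazolinone and methylisothiazolinone, small electrophiles that react with the thiol groups of proteins and of glutathione. Animals answer such compounds with enzymes that reduce peroxides (peroxiredoxins, catalase), that repair oxidised methionine (methionine sulfoxide reductase) and that join electrophiles to glutathione (glutathione transferases). In flies many of these genes are targets of the transcription factor cnc, which Keap1 holds back under resting conditions. Airborne compounds enter a fly through spiracles and the tracheal tubes, which carry air directly to flight muscle, brain and gut.

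The 6 libraries held 9971827 to 13450508 counts and 13173 to 14162 genes with at least 1 count. At these depths 3 counts correspond to 0.223 to 0.301 CPM (counts relative to library size), a floor for counting error alone because copies made by PCR are not separate molecules. The male label was checked with roX1, an RNA of the male dosage compensation complex, which stood at 1235 to 1698 CPM in the 6 libraries and at 0.837 to 7.01 CPM in 17 female libraries. The yolk protein transcript Yp1 stood at 0.944 to 21.6 CPM against 3248 to 15752 CPM in the same female libraries. Between 4.65% and 8.23% of counts in air libraries, and between 3.94% and 12.2% in exposed ones, came from the large ribosomal RNA of mitochondria. Its part in the differences below was not tested. Replicates of an arm correlated with r of 0.924 to 0.943 over log2 CPM, and no pair agreed within sampling noise.

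No gene passed the test of exposed against air males on day 1. With edgeR's quasi-likelihood test and Benjamini-Hochberg adjustment, 0 of 13216 genes tested were called higher (0%) and 0 lower (0%), and the lowest adjusted p was 0.589. At an unadjusted p below 0.05 the same test listed 461 genes as higher (3.49%) and 592 as lower (4.48%). The threshold named in the series text, over 1.5-fold with unadjusted p below 0.05, listed 398 genes as higher (3.01%) and 401 as lower (3.03%). DESeq2 called 3 of 13209 genes higher (0.0227%), namely CG12896, CG7059 and MFS12, and 1 lower (0.00757%), cass. Over all genes tested 50.7% had a positive and 49.3% a negative log2 fold change. All 3 exposed libraries lay above all 3 air libraries in 838 genes (6.34%) and below them in 893 genes (6.76%). An exact permutation test of 3 against 3 libraries cannot give a p below 0.1. The plot of fold change against p shows the genes named next.

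**Figure D1:**
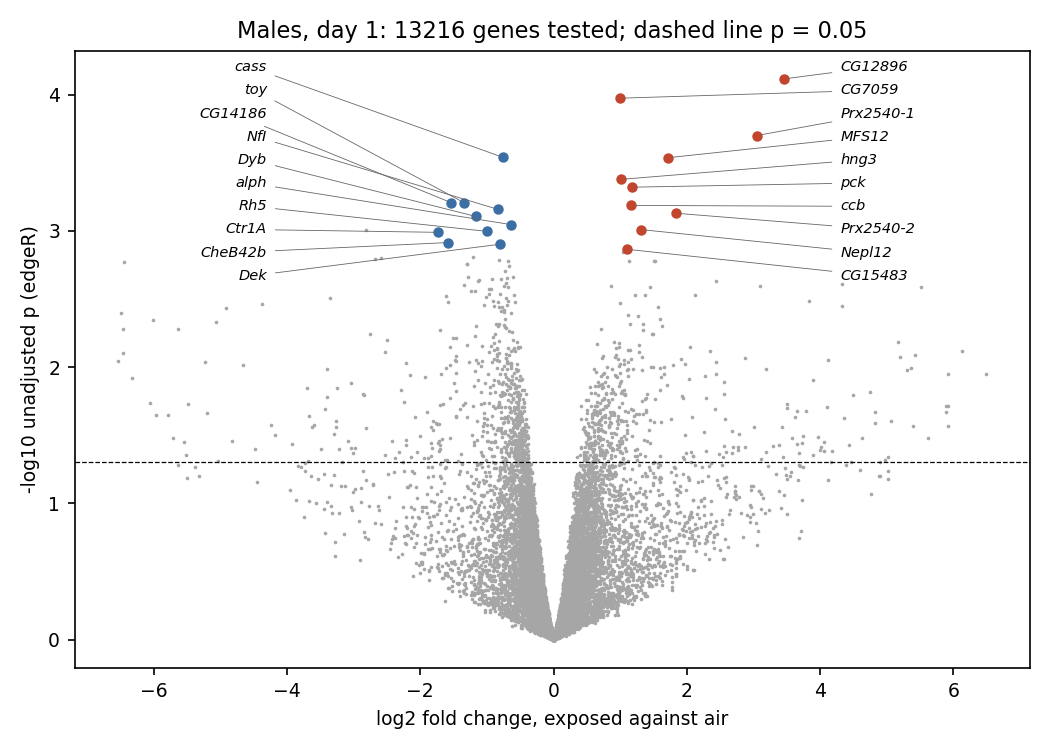
Log2 fold change of exposed against air males on day 1 (x axis) and −log10 of the unadjusted edgeR p (y axis) for 13216 genes. Red and blue points are the 10 genes with the smallest p in each direction among those averaging 5 CPM or more in one arm; CG12896 has the smallest p, and none of the points passed the adjusted threshold of 0.05.

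The genes with the smallest p included all 3 members of a peroxiredoxin cluster on chromosome arm 2R. CG12896 (FBgn0033521, 2R, 10426880 to 10427915, dm6) stood at 19.1, 19.6 and 18.7 CPM in the air libraries and at 35.9, 514 and 83.2 CPM in the exposed ones. Each exposed library exceeded each air library, and exposed replicate 2 was far above the other two. The log2 fold change was 3.46 ± 0.69 (SE) with an edgeR unadjusted p of 7.67e-05. Prx2540-1 (Prx6b in RefSeq, 2R, 10424436 to 10425471) had 71.5, 99.3 and 64.9 CPM in air and 106, 1668 and 175 CPM after exposure, again without overlap, and a log2 fold change of 3.05 ± 0.67. Prx2540-2 (Prx6c in RefSeq, 2R, 10418718 to 10419761) had 89.3, 62.2 and 90.2 CPM in air and 99.1, 625 and 143 CPM after exposure, with 1.84 ± 0.46. The 3 genes encode peroxiredoxins of the 1-cysteine type, enzymes that reduce peroxides, and lie close together. Near-identical copies can share or exchange reads, so the split among them is uncertain. Summed over the cluster the level was 180, 181 and 174 CPM in air males and 241, 2807 and 402 CPM in exposed males.

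The size of these differences rested on 1 library. Without exposed replicate 2 the log2 fold change was 1.64 for CG12896, 0.84 for Prx2540-1 and 0.59 for Prx2540-2, so the direction held and the folds shrank by 3.55, 4.61 and 2.39 times. MFS12, a membrane transporter of the major facilitator superfamily, had the same profile, with 19.2, 22.1 and 19.8 CPM in air and 33.3, 125 and 42.7 CPM after exposure. Its log2 fold change was 1.72 ± 0.39, and 0.90 without exposed replicate 2. Without exposed replicate 1, CG12896 and Prx2540-1 each passed edgeR's test at an adjusted p of 0.0446. With no filter on low counts CG12896 alone passed, at an adjusted p of 0.0374.

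Exposed replicate 2 was the highest of the 3 exposed libraries in 8 of the 10 genes named as higher, against 32.2% of all genes tested. Among the 461 genes listed as higher at an unadjusted edgeR p below 0.05 the share was 40.8%. It was the highest in 22 of 35 glutathione transferases, 13 of 15 Bomanin genes and 11 of 14 Turandot and JAK-STAT genes. Genes over 2-fold above the mean of air libraries numbered 894, 1224 and 1250 in exposed replicates 1, 2 and 3, so replicate 2 did not stand apart by that count. The labels name no batch, and the reason for this library's values was not tested.

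The remaining genes with the smallest p and positive values were smaller in fold and more even between libraries. CG7059 had 49.7, 32.3 and 37.9 CPM in air and 66.6, 94.8 and 77.3 CPM after exposure, with a log2 fold change of 0.99 ± 0.21. CG7059 shares its position with CG13857 on the opposite strand, and the strand setting of the counting is not given. The claudin gene pck, whose product seals septate junctions of epithelia and tracheal tubes, had 9.32, 5.92 and 5.80 CPM in air and 15.0, 18.3 and 13.9 CPM after exposure, with 1.17 ± 0.28. Nepl12, a neprilysin-like peptidase gene, had 7.57, 5.46 and 4.12 CPM in air and 15.3, 13 and 14.4 CPM after exposure, with 1.32 ± 0.34. In each of these genes the arms did not overlap and exposed replicate 2 did not set the difference, since without it the values were 0.85, 1.05 and 1.38. The other 3 were hng3 at 1.01, ccb at 1.16 and CG15483 at 1.11 on the log2 scale.

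The 10 genes with the smallest p and negative values were held apart by all 3 exposed libraries. For cass the air libraries had 78.5, 70.8 and 86.9 CPM and the exposed ones 53.6, 42.6 and 43.7 CPM, a log2 fold change of −0.75 ± 0.17. toy (twin of eyeless), a Pax6 transcription factor gene of eye and brain on chromosome 4, had 19.0, 39.3 and 17.1 CPM in air and 10.6, 7.17 and 11.8 CPM after exposure, at −1.35 ± 0.33. NfI, a nuclear factor I transcription factor gene also on chromosome 4, had 25.6, 22.0 and 28.7 CPM in air and 12.1, 16.2 and 14.4 CPM after exposure, at −0.83 ± 0.21. No air library of these 3 genes fell into the exposed range. Dyb, the dystrobrevin gene of the dystrophin complex, had a log2 fold change of −1.17 ± 0.29. The copper importer gene Ctr1A had 7.16, 4.93 and 3.28 CPM in air and 0.741, 2.33 and 1.54 CPM after exposure, at −1.73 ± 0.45. The protein phosphatase gene alph was the most even of the 10, with 121, 116 and 111 CPM in air and 73.2, 77.8 and 71.4 CPM after exposure, at −0.65 ± 0.16. CG14186 stood at −1.54, CheB42b of the chemosensory CheB family at −1.59, the chromatin protein gene Dek at −0.80 and the opsin gene Rh5 at −1.01. The plot of leading genes by library shows both kinds of profile.

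**Figure D2:**
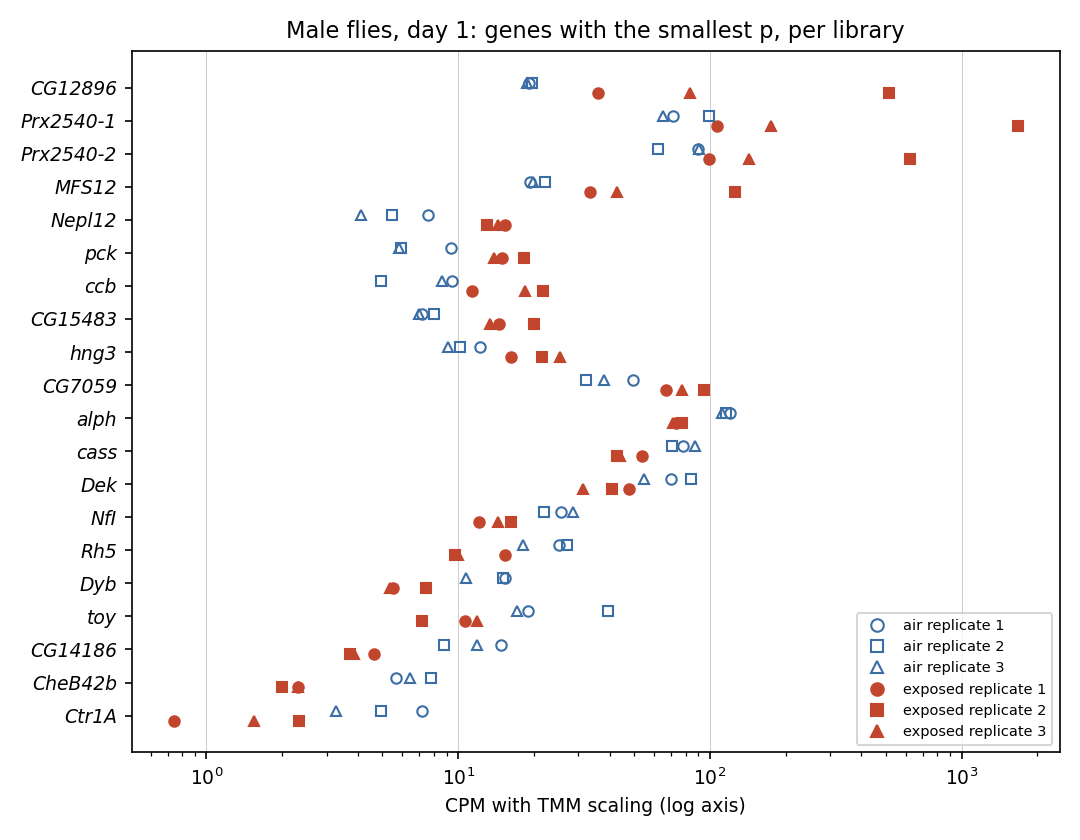
Level of the 20 named genes in each of the 6 day 1 male libraries (x axis, CPM with TMM scaling, log axis; blue open symbols air, red filled symbols exposed). In CG12896, Prx2540-1, Prx2540-2 and MFS12 the exposed replicate 2 square lies far right of the other red symbols, while in the genes of the lower part all 3 red symbols lie left of the blue ones.

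Photoreceptor genes had lower values in exposed males. Of 25 such genes tested, 23 had a negative log2 fold change, with a median of −0.47 beside 0.01 over all genes tested. In 12 of the 25 all exposed libraries lay below all air libraries, beside 6.76% of all genes tested. An unadjusted p below 0.05 in that direction was found in 12, beside 4.48% of all genes, and none passed the adjusted threshold of edgeR. The summed level of the list was 5988, 6648 and 5280 CPM in air and 4998, 4318 and 3753 CPM after exposure, with no overlap. Rh5, the blue-sensitive opsin of R8 cells, had 25.2, 27.1 and 18.0 CPM in air and 15.3, 9.68 and 9.99 CPM after exposure. Rh6, the green-sensitive opsin of R8 cells, had 102 to 129 CPM in the 3 air libraries and 73.6, 73.5 and 65.2 CPM after exposure, a log2 fold change of −0.71 ± 0.24. Both opsins share their retinal cell class, and in neither did the arms overlap. The major opsin gene ninaE of the outer photoreceptors had 1918, 1607 and 1228 CPM in air and 1072, 1068 and 948 CPM after exposure, at −0.62 ± 0.22. ninaA, the chaperone of that opsin, stood at −0.89 ± 0.29, inaE, a lipase of the light response, at −0.71 ± 0.21, and the light-gated channel gene trp at −0.55 ± 0.20. In norpA, the phospholipase C gene of the light response, the arms did not overlap either (−0.42 ± 0.22), whereas those of Arr2, an arrestin gene, overlapped (−0.32 ± 0.22).

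Neuronal genes, some of which photoreceptors also use, had negative values as well. Of 23 channel and synaptic genes 22 had a negative value, the median was −0.55, and 10 had no overlap in that direction, beside 6.76% of all genes tested. Summed levels were 2197, 2412 and 1895 CPM in air and 1723, 1264 and 1495 CPM after exposure. CadN, the neural cadherin gene, had 49.7, 46.2 and 37.8 CPM in air and 30.2, 19.9 and 25.7 CPM after exposure, at −0.82 ± 0.28. The vesicular acetylcholine transporter gene VAChT had 35.7, 29.7 and 25.4 CPM in air and 21.7, 15.6 and 15.3 CPM after exposure, at −0.79 ± 0.34. For nSyb, a synaptobrevin gene of synaptic vesicles, air libraries had 298, 341 and 263 CPM and exposed ones 232, 184 and 183 CPM, at −0.59 ± 0.26. These 3 genes did not overlap between arms. elav, a marker of nearly all neurons, had 77.9, 72.2 and 56.1 CPM in air and 60.5, 33.9 and 46.5 CPM after exposure, at −0.55 ± 0.22 with overlap. The sodium channel gene para stood at −0.56 ± 0.32 and the calcium channel gene cac at −0.68 ± 0.39. VAChT lies within the ChAT gene region, and reads of overlapping genes cannot be told apart here.

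Muscle genes were the third group of this kind. Of 26 flight and body muscle genes 23 had a negative value, with a median of −0.41, and 11 had no overlap in that direction, beside the same 6.76%. Their sum was 11362, 9056 and 8970 CPM in air and 6961, 6430 and 6784 CPM after exposure. sls, which encodes the titin-like proteins of the sarcomere, had 2494, 2374 and 2474 CPM in air and 1687, 1171 and 1313 CPM after exposure, at −0.82 ± 0.28. bt, the projectin gene of the same filament system on chromosome 4, had 1114, 1230 and 1173 CPM in air and 883, 645 and 674 CPM after exposure, at −0.68 ± 0.23. Both giant genes were even among air libraries and lower in every exposed one. The tropomyosin gene Tm2 stood at −0.71 ± 0.24, the muscle protein gene Mp20 at −0.64 ± 0.22 and the myosin heavy chain gene Mhc at −0.50 ± 0.28. Air replicate 1 held the highest sum of the list, and its part in the difference was not tested beyond leaving it out, which gave a list median of −0.23. In RNA of whole flies, fewer cells of a type and less RNA per cell cannot be told apart.

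Other lists of the body surface and senses had smaller medians. Odorant binding proteins, which carry odours in the antennal fluid, had a negative value in 27 of 36 genes and a median of −0.26. Obp49a had 72.2, 71.1 and 57.4 CPM in air and 46, 42.3 and 40.9 CPM after exposure, at −0.63 ± 0.27 without overlap. Obp99a went the other way without overlap, with 62.3, 52.3 and 69.0 CPM in air and 74.3, 86.8 and 82.5 CPM after exposure. Of the 36 genes 2 lay above air in all exposed libraries and 4 below, beside 6.34% and 6.76% of all genes tested. Tracheal genes had a negative value in 16 of 19 and a median of −0.26, and their sum overlapped between arms. Within that list vvl, a transcription factor gene of tracheal and other epithelia, had 276, 222 and 196 CPM in air and 183, 147 and 183 CPM after exposure. Its log2 fold change was −0.44 ± 0.19. Gasp, a chitin-binding protein of tracheal tubes, had 15.9, 14.1 and 11.6 CPM in air and 10.7, 6.13 and 9.32 CPM after exposure, at −0.67 ± 0.29. In the other direction, uif of this list had 3.41, 2.37 and 3.70 CPM in air and 5.27, 5.88 and 4.90 CPM after exposure. Osi6 also lay above air in all exposed libraries, with no value over 1.56 CPM. Thus 2 of the 19 tracheal genes lay above air throughout and 2 below, beside 6.34% and 6.76% of all genes tested. Circadian clock genes had a negative value in 10 of 12, with a median of −0.21. Of 44 cuticle protein genes 26 were positive and 18 negative. The plot of list shifts by library sets these lists beside those that lay on the other side of 0.

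**Figure D3:**
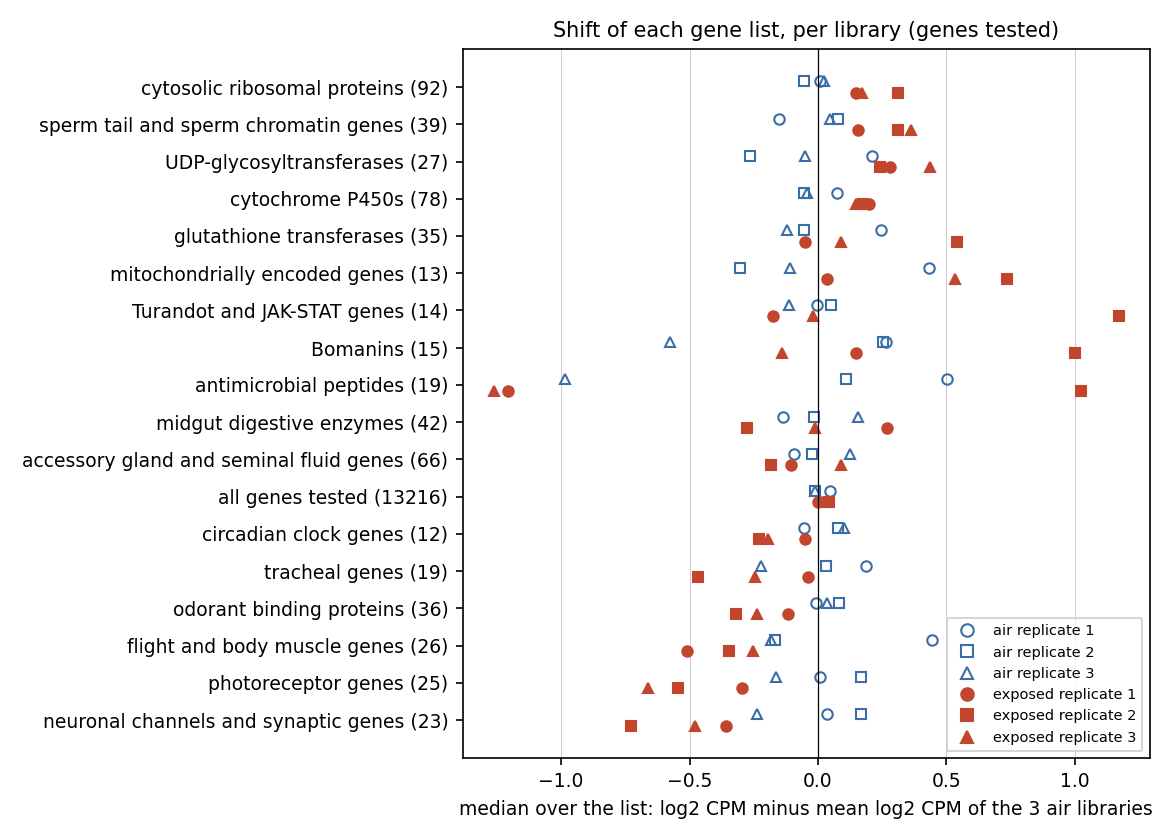
Median over the tested genes of each list (number in brackets) of the log2 CPM in 1 library minus the mean log2 CPM of the 3 air libraries; blue open symbols air, red filled symbols exposed. In muscle, photoreceptor, neuronal and odorant binding protein lists the 3 exposed symbols lie left of all air symbols, in ribosomal protein, sperm, UDP-glycosyltransferase and cytochrome P450 lists they lie right of them, and in Bomanin and Turandot lists 1 exposed symbol, replicate 2, stands alone.

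Ribosomal protein genes lay on the other side of 0. Of 92 cytosolic ribosomal protein genes 87 had a positive value, with a median of 0.22, and in 32 all exposed libraries lay above all air libraries, beside 6.34% of all genes tested. No gene of the list was below air throughout. Their sum was 113250, 108640 and 117100 CPM in air and 126680, 141800 and 126880 CPM after exposure. RpS16 of the small subunit had 2035, 2055 and 2221 CPM in air and 2591, 3105 and 2668 CPM after exposure, a log2 fold change of 0.41 ± 0.17. RpL3 of the large subunit had 2648, 2772 and 3297 CPM in air and 3404, 3676 and 4078 CPM after exposure, at 0.36 ± 0.17. RpS16 and RpL3 each host small nucleolar RNA genes in their introns. The differences were small but did not overlap between arms.

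Sperm genes also had positive values. Of 39 genes of the sperm tail and sperm chromatin 34 were positive, and the median was 0.25. All exposed libraries lay above air in 11 of them, beside 6.34% of all genes tested, and below air in 1. Their sum was 5772, 6780 and 6707 CPM in air and 6979, 7444 and 7897 CPM after exposure. The meiotic Cdc25 phosphatase gene twe had 2.83, 2.83 and 6.15 CPM in air and 8.81, 9.16 and 10.4 CPM after exposure, at 1.26 ± 0.39. The gene boly, one of the sperm list, had 37.7, 39.6 and 56.8 CPM in air and 67.2, 75.3 and 80.6 CPM after exposure, at 0.73 ± 0.34. Neither overlapped between arms, while Prtl99C, a sperm chromatin gene, did (0.73 ± 0.34). Proteasome subunit genes as a list had a median of 0.04, yet the members with the smallest p were copies used in the testis. Prosalpha6T had 13.1, 7.49 and 13.2 CPM in air and 20.8, 20.4 and 21.8 CPM after exposure, at 0.90 ± 0.36, and Prosalpha4T2 stood at 0.68 ± 0.28. A list of 15 testis proteasome copies, put together after these values were seen, had a median of 0.27 with 11 positive members. Its sum overlapped between arms, at 146, 155 and 156 CPM in air and 143, 198 and 230 CPM after exposure. Duplicate copies of respiratory chain genes, chosen in the same way, had a median of 0.21 with 17 of 20 positive, UQCR-14L standing at 0.88 ± 0.31. The sum of these copies overlapped too, at 602, 566 and 526 CPM in air and 578, 641 and 705 CPM after exposure. Seminal fluid genes of the accessory gland did not share the positive medians, with a median of −0.09 and 41 of 66 negative. Among them Sfp24Bc had 19.8, 21.7 and 27.4 CPM in air and 14.2, 6.22 and 7.50 CPM after exposure, at −1.30 ± 0.43.

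The same division appeared when all genes were sorted by sex bias in day 7 air libraries, a sorting made after the list values had been seen. These libraries belong to neither arm, although the males among them were part of the male fit. Of 13216 genes 1913 were over 8-fold higher in air males than in air females on day 7. Among these male-biased genes 71% had a positive value, the median was 0.18, and in 241 (12.6%) all exposed libraries lay above all air libraries. Of the 10803 genes with less bias in either direction 46.8% were positive, the median was −0.04, and 560 (5.18%) lay above. In the other direction 32 male-biased genes (1.67%) and 837 of the less biased genes (7.75%) lay below air throughout. The 500 female-biased genes, which are scarce in males, had 7.40% above and 4.80% below.

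Sorted by position, chromosome 4 stood apart from the major arms. Of its 95 genes tested 27.4% were positive, the median was −0.28, and 17 (17.9%) lay below air in all exposed libraries. On the X chromosome 45.4% of 2042 genes were positive and 8.67% lay below air, whereas on arms 2L, 2R, 3L and 3R the share below air ranged from 6.16% to 6.45%. Leaving out genes with over 8-fold sex bias gave 18.5% of 92 genes on chromosome 4 and 9.53% of 1711 genes on the X. The same step raised the share on arms 2L, 2R, 3L and 3R to between 7.12% and 7.56%. toy, NfI and bt, described above, are 3 of the chromosome 4 genes. These shares are descriptions without a test, since genes of one chromosome are not independent.

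**Figure D4:**
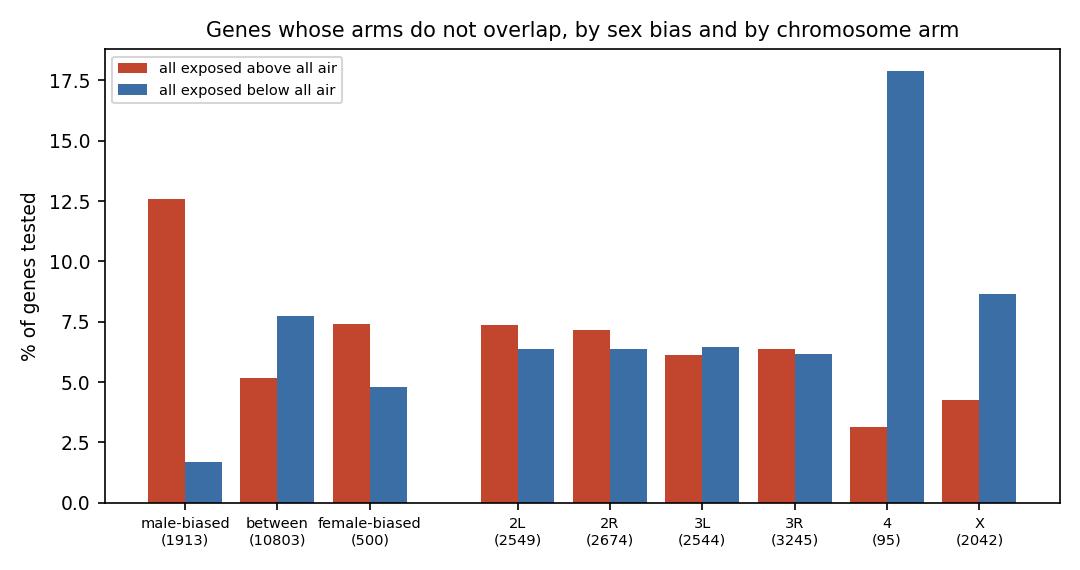
Share of tested genes (y axis, %) in which all 3 exposed libraries lay above (red) or below (blue) all 3 air libraries, by sex bias in day 7 air libraries (over 8-fold) and by chromosome arm; numbers in brackets are genes tested. Male-biased genes have the tallest red bar at 12.6%, and chromosome 4 the tallest blue bar at 17.9%.

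Of the detoxification families, glutathione transferases, cytochrome P450s and UDP-glycosyltransferases had positive medians and the list of carboxylesterases and juvenile hormone genes a negative one (−0.27, with 11 of 21 negative). That negative median did not keep its sign. It ranged from −0.30 to 0.14 over 15 alternatives and was above 0 in 3 of them. Of 35 glutathione transferase genes 25 were positive, with a median of 0.30. Without exposed replicate 2 the median was 0.07, with 19 of 34 positive. An unadjusted p below 0.05 was found in 5 as higher, beside 3.49% of all genes tested, and in 1 as lower, beside 4.48%. GstD2, a delta class transferase, had 21.6, 8.09 and 14.8 CPM in air and 24.3, 323 and 31.8 CPM after exposure, at 3.09 ± 0.89. GstD3 had 20.4, 11.9 and 6.01 CPM in air and 11, 57.1 and 27.5 CPM after exposure, at 1.32 ± 0.45. GstD2 did not overlap between arms and GstD3 did, and exposed replicate 2 held the top value of both. Without it GstD2 stood at 0.92 and GstD3 at 0.59. GstT4 of the theta class was more even, with 108, 68.6 and 94.3 CPM in air and 114, 217 and 146 CPM after exposure, at 0.82 ± 0.30. GstD1, the usual reporter of cnc activity, had 702, 640 and 653 CPM in air and 521, 1570 and 869 CPM after exposure, at 0.57 ± 0.30, and 0.06 without exposed replicate 2.

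Other redox genes were mixed. The catalase gene Cat had 545, 358 and 404 CPM in air and 469, 765 and 639 CPM after exposure, at 0.52 ± 0.21 with overlap. MsrA, a methionine sulfoxide reductase gene, had 26.7, 5.13 and 5.73 CPM in air and 11.5, 63.2 and 24.5 CPM after exposure, at 1.41 ± 0.62, and 0.53 without exposed replicate 2. For cnc itself the value was −0.20 ± 0.17, for Keap1 −0.23 ± 0.34 and for Gclc, the catalytic subunit of the first enzyme of glutathione synthesis, −0.20 ± 0.21. The 12 glutathione and cnc-Keap1 genes divided into 6 positive and 6 negative. MtnA, a metal-binding metallothionein gene, had 1822, 1809 and 1420 CPM in air and 2474, 2122 and 2149 CPM after exposure, at 0.42 ± 0.16 without overlap.

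Cytochrome P450 genes, which oxidise foreign compounds, were positive in 59 of 78 with a median of 0.18. Their sum overlapped between arms, at 8804, 6929 and 8677 CPM in air and 7730, 8437 and 8064 CPM after exposure. Cyp6a8 had 5.83, 6.57 and 4.96 CPM in air and 7.83, 36.0 and 8.94 CPM after exposure, at 1.60 ± 0.60, and 0.53 without exposed replicate 2. Cyp4d1 went the other way, with 4.49, 10.1 and 6.01 CPM in air and 2.72, 3.8 and 2.21 CPM after exposure, at −1.24 ± 0.36. Neither overlapped between arms. UDP-glycosyltransferase genes, which attach sugars to such compounds, were positive in 19 of 27 with a median of 0.58. Their sum overlapped, at 355, 278 and 331 CPM in air and 306, 310 and 363 CPM after exposure. Some members lay near the floor, such as Ugt36F1 with 0.333, 0 and 0 CPM in air. With only the libraries compared, 13 of 21 were positive and the median was 0.24. With a minimum of 5 CPM in 3 libraries, 12 of 17 were positive and the median was 0.40. Mitochondrially encoded genes were positive in 12 of 13 with a median of 0.47. ND1 of respiratory complex I had 983, 385 and 446 CPM in air and 567, 1270 and 1288 CPM after exposure, with overlap through air replicate 1, the air library with the largest share of mitochondrial ribosomal RNA.

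Immune lists held some members without overlap between the arms, in both directions. Over all genes tested 6.34% lay above air in all exposed libraries and 6.76% below, so the small counts given here do not set these lists apart. Antimicrobial peptide genes were positive in 9 of 19, with a median of −0.30 and summed levels of 9047, 10429 and 2100 CPM in air and 1411, 6674 and 2725 CPM after exposure. In 1 of the 19 all exposed libraries lay above air and in 2 below. The drosocin gene Dro had 4552, 6158 and 845 CPM in air and 303, 1706 and 1526 CPM after exposure, at −1.71 ± 0.87. The metchnikowin gene Mtk had 838, 899 and 165 CPM in air and 45.1, 606 and 150 CPM after exposure, at −1.25 ± 0.92, and −2.70 without exposed replicate 2. Air libraries thus ranged widely, and the median of the list ranged from −1.37 without exposed replicate 2 to 0.29 without air replicate 1. It was above 0 without air replicate 1, exposed replicate 1 or exposed replicate 3 and below 0 without any of the other 3 libraries. Drsl4, a drosomycin-like peptide gene, had 65.2, 69.9 and 83.2 CPM in air and 100.4, 119.8 and 97.3 CPM after exposure, at 0.54 ± 0.35 without overlap. Bomanins, short peptides of the Toll response, were positive in 14 of 15 with a median of 0.36, but in 7 of 15 with a median of −0.07 without exposed replicate 2. None of them was free of overlap, and BomT2 had 534, 549 and 428 CPM in air and 530, 1237 and 674 CPM after exposure. The stress peptide gene TotM had 347, 250 and 211 CPM in air and 185, 1827 and 264 CPM after exposure, at 1.50 ± 0.79, and −0.26 without exposed replicate 2. Diedel, a secreted immune regulator, had 15.3, 22.8 and 10.3 CPM in air and 10.3, 101 and 18.9 CPM after exposure, at 1.43 ± 0.70, and −0.14 without that library. Of 35 Toll and Imd signalling genes 3 lay above air in all exposed libraries and 1 below. The latter was pirk, a negative regulator of Imd signalling, with 24.1, 33.0 and 22.8 CPM in air and 16.9, 15.6 and 11.6 CPM after exposure, at −0.85 ± 0.57. Dif, a Toll transcription factor gene, had 34.5, 38.8 and 41.0 CPM in air and 44.0, 46.6 and 50.2 CPM after exposure, at 0.30 ± 0.21. In upd1, a JAK-STAT ligand gene, all values were at or below 2.42 CPM and the arms did not overlap (1.28 ± 0.70). Rel, the Imd transcription factor gene, had 151 CPM in exposed replicate 2 and 58.1 to 81.0 CPM in the other 5 libraries.

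Growth and metabolism lists held members without overlap in both directions. Of 20 insulin, adipokinetic hormone and starvation genes 1 lay above air in all exposed libraries and 3 below. Of 24 lipid genes 0 lay above and 2 below, and of 24 mitophagy and autophagy genes 2 lay above and 2 below. The shares over all genes tested were 6.34% above and 6.76% below. Thor, the 4E-BP brake on translation, had 604, 534 and 434 CPM in air and 582, 1993 and 843 CPM after exposure, at 1.12 ± 0.39 with overlap, and 0.44 without exposed replicate 2. The alpha-glucosidase gene tobi had 211, 130 and 216 CPM in air and 311, 318 and 335 CPM after exposure, at 0.79 ± 0.31 without overlap. The lipid droplet gene Lsd-2 had 1623, 1254 and 1186 CPM in air and 1116, 788 and 816 CPM after exposure, at −0.58 ± 0.19 without overlap. BNIP3, a mitophagy receptor gene, had 250, 201 and 219 CPM in air and 260, 384 and 373 CPM after exposure, at 0.60 ± 0.24 without overlap. Digestive enzymes of the midgut were positive in 18 of 42, with a median of −0.09. Among heat shock genes the chaperone gene Hsp83 had 636, 720 and 559 CPM in air and 561, 369 and 373 CPM after exposure, at −0.56 ± 0.21, and Hsp23 stood at 0.95 ± 0.43, and at 0.29 without exposed replicate 2, both with overlap. The endoplasmic reticulum chaperone gene Cnx99A had 212, 190 and 189 CPM in air and 152, 148 and 144 CPM after exposure, at −0.41 ± 0.15 without overlap.

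Later days in males were compared to ask whether the day 1 values differ from those on days 2 and 7. No gene passed the test of a difference among the 3 daily effects with edgeR (0 of 13216, 0%), 581 had an unadjusted p below 0.05 (4.40%), and DESeq2's likelihood ratio test called 4. Across genes the day 1 effect correlated with r = 0.06 with that of day 2 and r = −0.01 with that of day 7, as a description over genes that are not independent. MFS12 stood at 1.72 on day 1, −1.43 on day 2 and −0.86 on day 7, the smallest p of this test (adjusted p = 0.436, edgeR). Mtk stood at −1.25, 6.79 and 0.69, and Dro at −1.71, 4.74 and 0.93, on the same days. The day 2 values rest on 2 exposed libraries, which held 278 and 3600 CPM of Mtk and 1254 and 6383 CPM of Dro. Day 2 air males held 13.7 to 23.4 CPM of Mtk and 99.0 to 201 CPM of Dro. CG12896 stood at 3.46, 1.00 and −0.45. Median values of photoreceptor genes were −0.47, 0.05 and 0.03, of neuronal genes −0.55, −0.30 and 0.11, of muscle genes −0.41, −0.09 and 0.06, and of ribosomal protein genes 0.22, −0.04 and −0.05. The plot of list medians by comparison shows these beside the females of day 1.

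**Figure D5:**
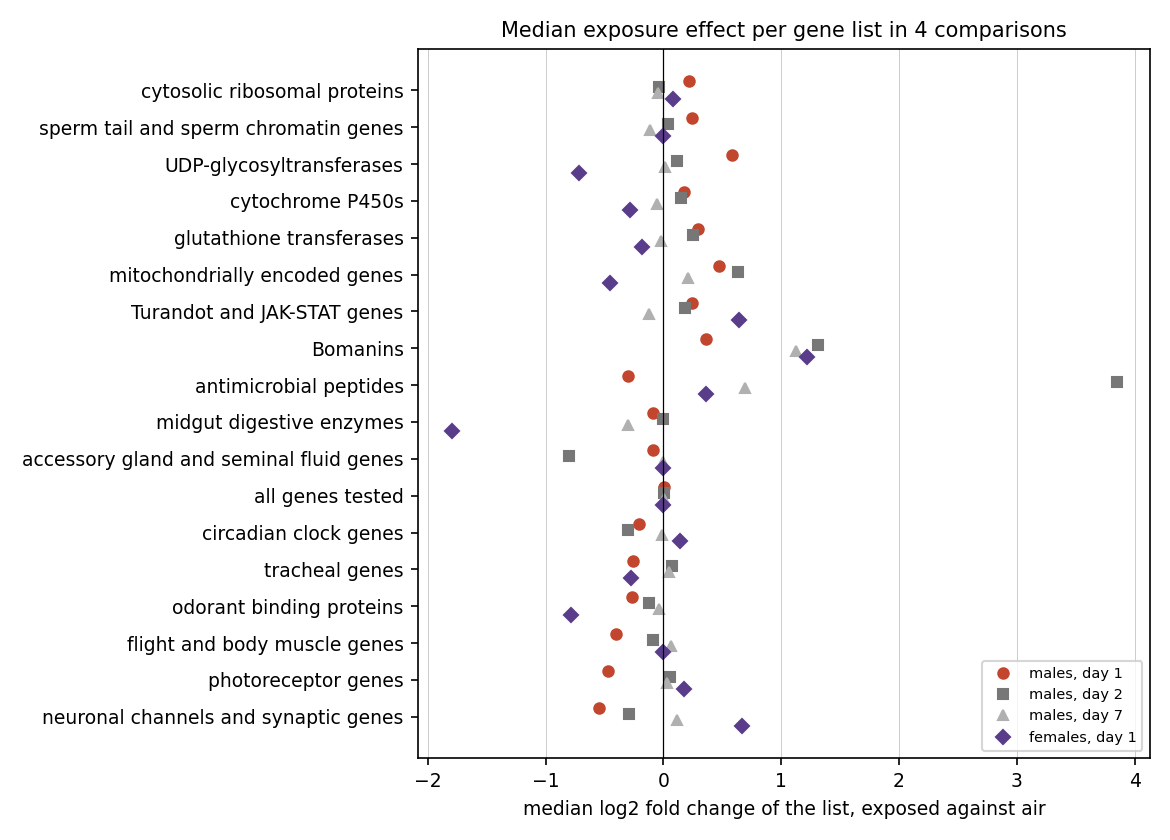
Median log2 fold change of each gene list, exposed against air (x axis), in males of day 1 (red circles), day 2 (squares) and day 7 (triangles) and in females of day 1 (purple diamonds). Neuronal genes lie at −0.55 in day 1 males and at 0.67 in day 1 females, and antimicrobial peptide genes at −0.30 in day 1 males and at 3.85 in day 2 males. The day 2 values rest on 2 exposed libraries.

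Females of day 1 were compared to ask whether the exposure effect differs between the sexes. A fit of 34 libraries, in which the male effect was subtracted from the female one, called 2 genes above 0 (0.0147%) and 5 below 0 (0.0367%) of 13621, while 1597 had an unadjusted p below 0.05 (11.7%). Leaving out 1 day 1 library gave 2 to 22 genes. Females on their own had 65 genes called higher (0.477%) and 182 lower (1.34%) in that fit. Across genes the effects of males and females correlated with r = 0.03. Ank2, a neuronal ankyrin gene, had 117, 145 and 148 CPM in air males and 111, 78.0 and 85.2 CPM in exposed males, at −0.58 ± 0.24. In females it had 10.2, 13 and 12 CPM in air and 25, 31.2 and 27.5 CPM after exposure, at 1.25 ± 0.25. The difference between the sexes was 1.83 ± 0.34 (edgeR adjusted p = 0.0440), and the arms overlapped in neither sex. CG42404, the other gene above 0, had 10.3, 20.1 and 16.2 CPM in air males and 15.8, 15.4 and 11.7 CPM in exposed males. In females its level was 0.371, 0.942 and 0.803 CPM in air and 3.78, 4.37 and 8.01 CPM after exposure. The arms did not overlap in females and did in males.

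The 5 genes below 0 were nearly silent in exposed females and present in exposed males. Alp9, an alkaline phosphatase gene, had 27.6, 21.7 and 43.3 CPM in air males and 45.2, 12 and 22.7 CPM in exposed males, with overlap. In females it had 688 counts in the air libraries and 1 count in the exposed ones, which is 0.0013 of the air level (95% counting interval 3.29e-05 to 0.00728). CG14963 had 4.96, 1.96 and 1.86 CPM in air males and 4.50, 29.6 and 4.24 CPM in exposed males, and 148 against 1 counts in females, a ratio of 0.00605 (95% counting interval 0.000152 to 0.0342). Both intervals cover counting error alone and not the spread between libraries. Neither gene separated the arms in males. The sodium channel gene ppk10 had 3.53, 4.05 and 3.29 CPM in air males and 5.01, 5.68 and 9.85 CPM in exposed males, without overlap, and 48 against 2 counts in females. CG1946 and CG11550 had 174 against 1 and 68 against 1 counts in females, and overlapped between arms in males.

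The peroxiredoxin genes and GstD2 had positive values in both sexes. CG12896 had 7.86, 15.1 and 10.7 CPM in air females and 36.5, 123.3 and 24.9 CPM in exposed females. That effect of 2.46 ± 0.66 passed the test in females (edgeR adjusted p = 0.0473), and the difference from males was −1.02 ± 0.89. Prx2540-1 stood at 2.07 ± 0.63 in females, with a difference of −0.98 ± 0.86, and GstD2 at 2.71 ± 0.86, with a difference of −0.40 ± 1.14. None of these 3 differences passed the test, which does not show that the sexes act alike. Neuronal channel genes lay on opposite sides of 0 in the sexes. The calcium channel gene cac stood at −0.68 ± 0.36 in males and at 1.84 ± 0.39 in females, with a difference of 2.52 ± 0.53 (edgeR adjusted p = 0.0728). The acetylcholine receptor gene nAChRalpha5 stood at −0.78 ± 0.37 in males and 1.67 ± 0.40 in females, with a difference of 2.45 ± 0.55 (edgeR adjusted p = 0.0908). Neither difference passed the threshold of 0.05.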

How the data were processed

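Per the labels' protocols, Trizol was used to extract RNA of whole flies and a Lexogen QuantSeq kit to sequence transcript ends. Raw read counts per gene symbol were deposited. fastp, STAR and HTSeq are named with the dm6 build in the submitters' processing notes, and the sources used here give neither their versions nor the annotation or strand setting. The authors' counts covered 17582 symbols in each library, and 1 blank entry, at most 0.000107% of a library, was left out. Coordinates come from the BDGP6.54 annotation, and from RefSeq for 246 symbols matched through synonyms.

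Exposed minus air was tested with edgeR 4.0.16 (R 4.3.3) by the quasi-likelihood F test over 17 male libraries in 6 groups, with filterByExpr (minimum count 10, minimum total 15), TMM scaling and 0.125 as prior count. Adjustment of p-values used the Benjamini-Hochberg method across every gene tested, at a threshold of 0.05. Day 2 exposed male replicate 3 and day 2 exposed female replicate 1, which held over 100 CPM of roX1 together with over 1000 CPM of Yp1, were left out of the fits, so that the fit of both sexes used 34 libraries. CPM values of males carry TMM scaling within the male fit. Those of the sex comparison carry the scaling of the fit of both sexes, whereas floors and sex markers use the unscaled library total. Fold changes are on the log2 scale with SE.

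Named genes are the 10 with the smallest p per direction that averaged 5 CPM or more in one arm, the 4 or fewer lowest-p members of each of 37 gene lists, and those with the smallest p in the difference tests. GstD1, ninaE, trp, norpA, Arr2, nSyb, para, Mhc, Keap1 and Gclc were chosen after their values were seen, and not every gene the rule selects is printed. Lists and comparisons were chosen with earlier results of these data known, and 4 lists and the sorting by sex bias (0.5 CPM added to both means) and chromosome were added later. Lists are described by counts and medians without a test. Deviations of like-numbered exposed and air males on day 1 correlated with r of −0.05, 0.01 and 0.03 over all genes. Such values cannot exclude a pairing that affects only some genes. Alternatives were DESeq2 1.42.0, edgeR with DESeq2 size factors, all genes unfiltered, a minimum of 5 CPM in 3 libraries, the replicate block, only the libraries compared, both sexes in one fit, the 2 mixed libraries included, the threshold of the series text, and leaving out each day 1 library. The procedure was tested on simulated data.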

Additional observations from a re-analysis of the deposited data

Results flagged for a closer look

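In 7 genes the day 1 effect differed between the sexes by the edgeR test of the difference itself, with the male effect subtracted from the female one on the log2 scale. The difference was −8.92 for CG14963, −8.75 for Alp9, −5.45 for CG11550, −6.39 for CG1946 and −5.31 for ppk10. These 5 fitted values depend on the prior count, since exposed females held 1 or 2 counts. They also moved by over 1.5-fold with single libraries left out. The range was −10.54 (without female exposed replicate 2) to −7.37 (without male exposed replicate 2) for CG14963, which stood at −9.52 without male air replicate 1, and −10.38 (without female exposed replicate 2) to −8.13 (without male exposed replicate 1) for Alp9. Without female exposed replicate 1 CG11550 stood at −7.08, and without female exposed replicate 2 CG1946 stood at −8.01. The value for ppk10 ranged from −7.70 (without female exposed replicate 3) to −4.35 (without female air replicate 1). The difference was 1.83 for Ank2 and 3.04 for CG42404.

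A male library that entered none of the comparisons, day 2 exposed male replicate 3, held 6700 CPM of the yolk protein transcript Yp1, against at most 176 CPM in the other 17 male libraries.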

How the results depend on the processing

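No gene was called in day 1 males by edgeR with DESeq2 size factors, the 5 CPM filter, only the 6 libraries compared, both sexes in one fit or the 2 mixed libraries included. The replicate block also called 0 higher and 0 lower genes in males, no difference among days, and 60 sex differences in place of 7. DESeq2 called 3 higher and 1 lower, 4 differences among days and 159 between the sexes. With no filter 1 gene was called higher and 11 differed among days. The sex difference fell to 2 genes with DESeq2 size factors and to 2 with the mixed libraries, and was 50 with only the libraries compared. The threshold of the series text gave 398 higher, 401 lower, 1568 sex differences and 24 of 37 lists with a member called, where the adjusted threshold gave 0. Leaving out 1 library gave 0 to 2 higher genes (2 without exposed replicate 1), no lower gene, 0 to 1 lists and 2 to 22 sex differences. Sex differences numbered 19 without male air replicate 1, 20 and 22 without female exposed replicates 1 and 2, and 2 to 9 without any other library. Of 116 named genes 2 took the opposite sign, both without exposed replicate 2, TotM (−0.26 to 1.96 over the libraries left out) and Diedel (−0.14 to 1.89). The cause of these changes was not tested. Of 41 lists, 23 kept the sign of their median in every alternative, among them the muscle (−0.52 to −0.23), photoreceptor (−0.58 to −0.42), neuronal (−0.68 to −0.43), ribosomal protein (0.17 to 0.24) and sperm (0.19 to 0.30) lists. Those of antimicrobial peptides (−1.37 to 0.29), Bomanins (−0.07 to 0.56) and Turandot genes (−0.20 to 0.56) did not. With 3 libraries an arm, values near the floor of 0.223 to 0.301 CPM carry no direction.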

Other observations

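Exposed replicate 2 held the highest exposed value in both sexes for CG12896, Prx2540-1, Prx2540-2 and MFS12. Among the 10 genes named as higher in males, exposed replicate 2 was the highest of the exposed male libraries in 8 and the highest of the exposed female libraries in 6, while 2 genes, ccb and CG15483, had no count in exposed females. The 10 genes were chosen by their male values. The female share over all genes is not given here, so the female count has no background beside it. In females CG12896 had 123.3 CPM in that library against 36.5 and 24.9 CPM in the other two, and MFS12 had 57.1 CPM against 14.7 and 17.2 CPM. Over all genes, deviations from the group mean of exposed male and female replicates 2 correlated with r = 0.04, and like-numbered exposed replicates 1 and 3 with r = −0.00 and −0.01. The labels do not say whether a replicate number marks a shared exposure.

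Ovary and yolk genes, which should be near 0 in males, were positive in 19 of 23 genes, beside 50.7% of all genes tested. Some lay near the floor, such as Fcp3C with 0, 0 and 0 CPM in air and 0, 0.95 and 1.54 CPM after exposure. With only the libraries compared 14 genes were tested, of which 13 were positive. The summed level of the list was 43.4, 53.4 and 63.5 CPM in air and 60.6, 88.0 and 115.8 CPM in exposed males, with overlap. Yp1 had 0.916, 2.89 and 5.45 CPM in air and 9.72, 8.99 and 20.7 CPM after exposure, far below any female library, and its source was not tested.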
